A study of Mus musculus with 9 samples.

Results

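The genes described here encode the enzymes that write, copy and remove cytosine methylation in DNA. They are 9 rows of a table of 52264 gene rows, chosen by symbol: the DNA methyltransferase genes Dnmt1, Dnmt3a and Dnmt3b, their cofactor genes Dnmt3l and Uhrf1, the oxidase genes Tet1, Tet2 and Tet3, and the glycosylase gene Tdg. All 9 had reads in every library and all 9 were among the 15366 genes that passed the low-count filter.

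The libraries were RNA sequencing libraries of mouse embryonic stem cells labelled beta-catenin-/-, a genotype that all 3 groups share. One group was untreated (the control), one received BRD0705, an inhibitor selective for the kinase GSK3α, and one received CHIR, which is CHIR-99021, an inhibitor of GSK3α and GSK3β. The exposure lasted 30 min, the doses are not given in the sources used here, and each group had 3 libraries. The cells grew on feeder-treated dishes and were expanded in medium containing CHIR-99021 at 3 µM, the MEK inhibitor PD03 at 1 µM and LIF at 40 ng/ml, in all groups. They were kept in N2B27 overnight before the exposure, and whether this medium still held these additions is not given in the sources used here. The labels do not say whether the 3 libraries of a group came from separate cultures, so p-values measure the spread between libraries, which may be technical.

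Methylation at CpG sites is set down by Dnmt3a and Dnmt3b, helped in germ cells and early embryos by Dnmt3l, which lacks catalytic activity of its own. At each round of replication Uhrf1 recognises the half-methylated sites and recruits Dnmt1, which copies the mark. Tet enzymes oxidise methylcytosine, and Tdg excises the most oxidised forms so that base excision repair can restore cytosine. Embryonic stem cells are known to express Dnmt3b, Dnmt3l, Tet1 and Tet2, and their methylation level is known to depend on the inhibitors in the medium.

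Library totals ran from 17359422 to 20773337 counts. Ctnnb1, the gene of the genotype label, had 303 to 371 CPM (counts scaled to library size, with TMM factors); a count per gene cannot tell a deleted exon from a kept one. All 10 embryonic stem cell markers had reads in every group, with Pou5f1 at 918 ± 35.3 CPM (SD, n = 9). Of the 10, Esrrb and Klf4 were higher with CHIR than in control by edgeR, where 6.3% of all genes passed. These genes and Tdgf1 were lower with BRD0705 than with CHIR by edgeR, where 7.77% of all genes passed. All 10 fibroblast markers had reads too, with none at 0 in any group. With each inhibitor the log2 fold changes of all 10 against control were above 0. Their medians were 0.23 with BRD0705 and 0.17 with CHIR, beside -0.0038 and -0.0091 over all genes tested. Col1a1 and Col5a1 were higher at an edgeR adjusted p under 0.05 in both comparisons, where 1.22% and 6.3% of all genes passed. At an unadjusted edgeR p under 0.05 there were 7 and 5 of the 10, against 15.9% and 20.5% of all genes. The mean log2 CPM of the 10 was 6.90 to 7.12 in control, 7.22 to 7.30 with BRD0705 and 7.04 to 7.29 with CHIR. The BRD0705 libraries thus lay above the controls and the CHIR libraries overlapped them. In bulk RNA, fewer cells of a type and less RNA per cell cannot be told apart.

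Of the 9 genes, 1 passed the test in 1 comparison. Dnmt3a was lower with CHIR than in control. Its promoters are shown as those of the gene that passed, beside that of its closest relative Dnmt3b, which did not. The bases are those before a RefSeq transcription start, from RefSeq on GRCm38.p6, the release that corresponds to the mm10 build named in the submitters' processing notes. Each is written 5′ to 3′ on the strand of the gene, with CpG dinucleotides in capitals. The run before the first Dnmt3a start spans chr12:3806730-3806979, that before the internal start, the third of 3 listed, chr12:3891494-3891743, and that before the only Dnmt3b start chr2:153649199-153649448, all on the plus strand.
Dnmt3a, first start: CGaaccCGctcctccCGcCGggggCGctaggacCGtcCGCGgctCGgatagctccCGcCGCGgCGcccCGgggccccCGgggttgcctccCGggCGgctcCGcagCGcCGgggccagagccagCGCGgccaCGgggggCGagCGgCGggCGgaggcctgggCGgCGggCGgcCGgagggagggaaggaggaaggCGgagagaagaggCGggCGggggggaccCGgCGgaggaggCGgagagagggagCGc
Dnmt3a, internal start: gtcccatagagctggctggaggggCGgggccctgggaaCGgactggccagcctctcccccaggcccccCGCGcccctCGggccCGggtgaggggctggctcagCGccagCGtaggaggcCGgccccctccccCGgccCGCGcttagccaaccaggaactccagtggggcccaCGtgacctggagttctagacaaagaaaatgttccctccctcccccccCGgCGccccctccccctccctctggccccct
Dnmt3b: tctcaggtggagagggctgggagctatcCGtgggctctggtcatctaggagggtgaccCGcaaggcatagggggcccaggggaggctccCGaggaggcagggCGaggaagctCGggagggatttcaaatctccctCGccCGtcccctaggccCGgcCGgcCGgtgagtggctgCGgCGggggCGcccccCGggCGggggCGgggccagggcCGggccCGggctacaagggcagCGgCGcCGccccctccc

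These runs of 250 bases hold 38 CpG sites at the first Dnmt3a start, 15 at the internal one and 21 at Dnmt3b. The windows of RefSeq starts extend 50 bases further, and over the 300 bases of a window the median of 32851 mouse windows was 7 CpG sites, with quartiles of 3 and 20. The first Dnmt3a window held 46, the internal one 18 and the Dnmt3b window 30. Tet2 had the most CpG sites of the 9 genes, with 57 in its window, at percentile 99.9. The 3 Dnmt3l windows held 3 to 6. The TCF/LEF core, searched on both strands as CTTTGA or CTTTGT, occurred in 31.2% of all windows. It was matched once in the internal Dnmt3a window, once in the third Dnmt3l window and once in the first Dnmt1 window, and in none of the other 13 windows of these genes. A match is only a run of letters, and the start in use cannot be read from gene counts.

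Dnmt3a, one of the enzymes that place new methylation, had 77.2, 84.8 and 83.2 CPM in control replicates 1 to 3. With CHIR the 3 libraries had 67.5, 72.5 and 70.4 CPM. With BRD0705 they had 78.6, 80.3 and 74.8 CPM. The highest CHIR library lay below the lowest control and the lowest BRD0705 library, while BRD0705 and control overlapped. CHIR against control gave a log2 fold change of -0.22 ± 0.058 (SE), with a 95% interval of -0.34 to -0.099 and an adjusted p of 0.0286 (quasi-likelihood test of edgeR, adjusted by Benjamini-Hochberg over every gene tested). In linear terms Dnmt3a fell by 14.3%. Over all genes tested, 6.3% passed in this comparison, 3.78% lower and 2.52% higher. That split differed between fits. It was 387 genes higher and 581 lower as reported, 466 and 457 with DESeq2, and 252 and 702 with library size only. With the GC and length correction it was 1002 and 535 (995 and 508 with the replicate block added). The Dnmt3a estimate was negative under each, but with the GC and length correction without the block it did not pass (edgeR adjusted p 0.0521).

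BRD0705 against control gave -0.070 ± 0.058 for Dnmt3a (SE; 95% interval -0.19 to 0.052, edgeR adjusted p 0.61). The direct difference between the inhibitors, BRD0705 against CHIR, was 0.15 ± 0.059 (SE; 95% interval 0.029 to 0.27, edgeR adjusted p 0.128) and did not pass, so the 2 inhibitors were not shown to differ in their effect on Dnmt3a.

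The Dnmt3a call was close to the threshold. It passed in 14 of 21 alternative fits and was negative in all 21, from -0.26 to -0.17. Leaving out any 1 of 5 libraries ended the call: the edgeR adjusted p was 0.14 without control replicate 2, 0.126 without control replicate 3, and 0.131, 0.0659 and 0.0828 without CHIR replicates 1, 2 and 3. With the fibroblast marker score of each library as a covariate the Dnmt3a change was -0.18 (edgeR adjusted p 0.333). The mean score was 7.19 with CHIR and 7 in control, so this fit cannot fully separate the score from the treatment. Calls over all genes fell in it too. With library trends over GC content and gene length removed it was -0.17 (edgeR adjusted p 0.0521), and 0.0474 was the edgeR adjusted p when the replicate number was added as a block.

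**Figure D1:**
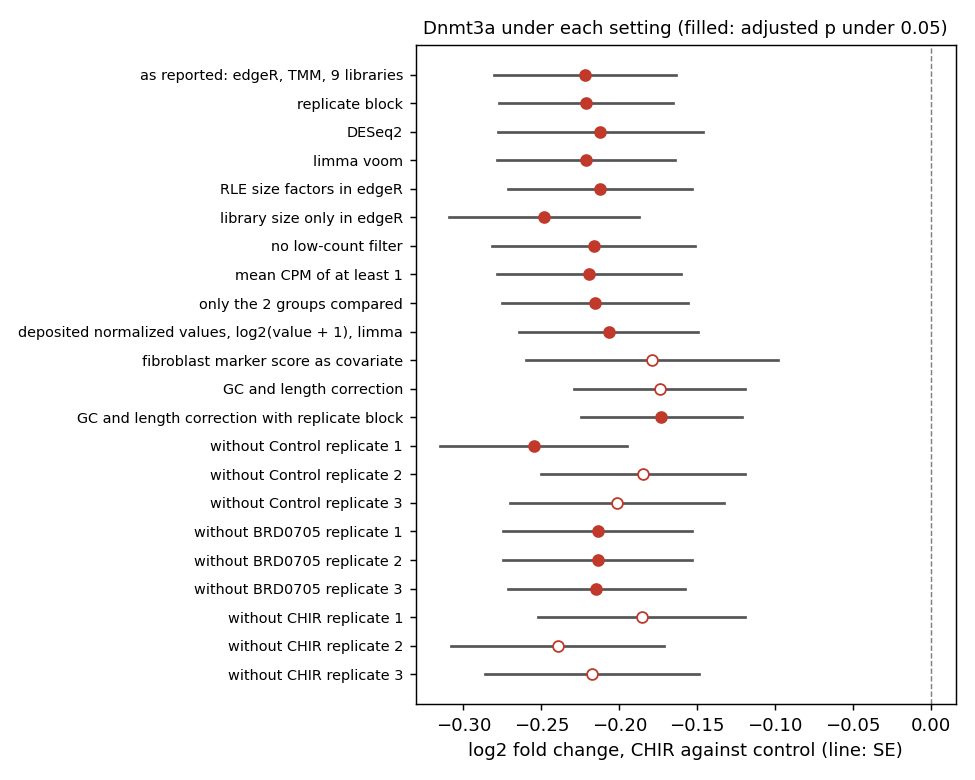
Log2 fold change of Dnmt3a, CHIR against control, as reported and under 21 alternatives (horizontal axis), with lines of 1 SE. Filled points passed an adjusted p of 0.05; every point lies left of 0, between -0.26 and -0.17, and 7 of the alternatives are open.

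The other methyltransferase genes gave no call. Dnmt1, the copying enzyme, had 421, 399 and 409.9 CPM in control, 444, 436 and 441 CPM with BRD0705, and 409, 419.8 and 435 CPM with CHIR. All 3 BRD0705 libraries lay above all 3 controls and, narrowly, above the CHIR libraries. The Dnmt1 difference between BRD0705 and control was 0.10 ± 0.049 (SE; 95% interval 0.0017 to 0.21), with an unadjusted p of 0.0466 and an edgeR adjusted p of 0.306. CHIR against control was 0.040 ± 0.049 for Dnmt1 (SE; edgeR adjusted p 0.712).

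Dnmt3b, the second enzyme for new methylation, had 265, 265.5 and 258 CPM in control. It had 277, 270.1 and 273 CPM with BRD0705 and 263, 271 and 277 CPM with CHIR. BRD0705 libraries lay above the controls without overlap, and CHIR libraries overlapped them. The Dnmt3b differences from control were 0.056 ± 0.048 with BRD0705 and 0.041 ± 0.048 with CHIR (SE; edgeR adjusted p 0.624 and 0.696). The upper limits of their 95% intervals were 0.16 and 0.14.

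Dnmt3l, the catalytically inactive cofactor, was the steadiest gene beside Dnmt3b, with a coefficient of variation of 2.49% over the 9 libraries against 2.40% for Dnmt3b. It had 377, 390.4 and 380.5 CPM in control, 369, 380.1 and 388 CPM with BRD0705, and 391, 398 and 372 CPM with CHIR, so the groups overlapped. Its log2 differences from control were -0.015 ± 0.049 and 0.017 ± 0.049 (SE; edgeR adjusted p 0.927 and 0.899). An exon of Aire lies opposite Dnmt3l and the Aire row held 3011 to 3841 counts; as the use of strand in counting is not given in the sources used here, reads of this pair cannot be told apart.

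Uhrf1, which brings Dnmt1 to newly copied DNA, had the most counts of the 9 genes. It stood at 562, 578 and 582 CPM in control, 626, 592 and 579 CPM with BRD0705, and 583, 601 and 616 CPM with CHIR. Every CHIR library was above every control, though the nearest pair lay close together. Its log2 differences from control were 0.062 ± 0.050 with BRD0705 and 0.064 ± 0.050 with CHIR (SE; edgeR adjusted p 0.599 and 0.522).

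Tet1 and Tet2, the main oxidases of stem cells, also gave no call. Tet1 had 297, 331 and 324 CPM in control, 349.6, 355 and 310.1 CPM with BRD0705, and 328, 338 and 345 CPM with CHIR. Control replicate 1 was the lowest library and BRD0705 replicate 2 the highest, and both inhibitor groups overlapped control. The Tet1 differences from control were 0.091 ± 0.059 with BRD0705 and 0.086 ± 0.059 with CHIR (SE; edgeR adjusted p 0.482 and 0.459).

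Tet2 had 266, 287 and 288 CPM in control, 292, 273 and 239 CPM with BRD0705, and 252, 281 and 289 CPM with CHIR. The BRD0705 libraries held both its lowest and its highest value. Its differences from control were -0.066 ± 0.069 with BRD0705 and -0.034 ± 0.069 with CHIR (SE; edgeR adjusted p 0.706 and 0.841).

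Within a library the scaling cancels, so Tet1 and Tet2 were also set against each other per kilobase of longest transcript. The ratio of Tet1 to Tet2 was 0.764, 0.787 and 0.768 in control, 0.819, 0.889 and 0.886 with BRD0705, and 0.888, 0.823 and 0.816 with CHIR. The 3 controls were lower than all 6 inhibitor libraries. It was 1 of 6 pairs of these genes set against each other, chosen after the counts were opened and not tested. The control ratios did not overlap those with BRD0705 in 3 pairs (Tet1 to Tet2, Tet1 to Dnmt3a and Tet3 to Tet2). They did not overlap those with CHIR in 4 (Tet1 to Tet2, and Tet1, Dnmt3b and Dnmt3l to Dnmt3a), and Uhrf1 to Dnmt1 overlapped in both. The CHIR ratios over Dnmt3a all share the fall of that gene. The share of other gene pairs that separate was not computed, and library trends over GC content do not cancel in a ratio. Both inhibitor groups are read against the same 3 controls, so these counts are not read as a result.

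Tet3, the oxidase known from the egg and from differentiated cells, had few reads, 201 to 300 counts per library. It had 13.2, 12.6 and 12.2 CPM in control, 16.1, 14.5 and 13.01 CPM with BRD0705, and 10.02, 12.3 and 14.4 CPM with CHIR. The CHIR libraries spread around the controls, and the groups overlapped in all 3 comparisons. BRD0705 against CHIR gave 0.25 ± 0.12 for Tet3 (SE; 95% interval 0.0015 to 0.49, unadjusted p 0.0487, edgeR adjusted p 0.219). BRD0705 against control gave 0.19 ± 0.11 (SE; 95% interval -0.049 to 0.43, edgeR adjusted p 0.442), so a Tet3 difference of up to 0.43 was not excluded by the interval. An exon of Bola3, with 527 to 838 counts, lies opposite Tet3, and shared reads cannot be told apart here either.

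Tdg, the glycosylase that removes oxidised methylcytosine, had 79.2, 84.0 and 80.6 CPM in control, 76.9, 76.2 and 79.1 CPM with BRD0705, and 85.9, 83.4 and 80.6 CPM with CHIR. The BRD0705 libraries were lower than the controls and the CHIR libraries, with the nearest control almost level. Its differences were -0.070 ± 0.054 for BRD0705 against control and -0.11 ± 0.054 for BRD0705 against CHIR (SE; edgeR adjusted p 0.579 and 0.263). Of the rows named for pseudogenes of these genes, the largest, Tdg-ps2, had 6 to 15 counts per library, and Dnmt3c, a methyltransferase of the male germline, 0 to 6.

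**Figure D2:**
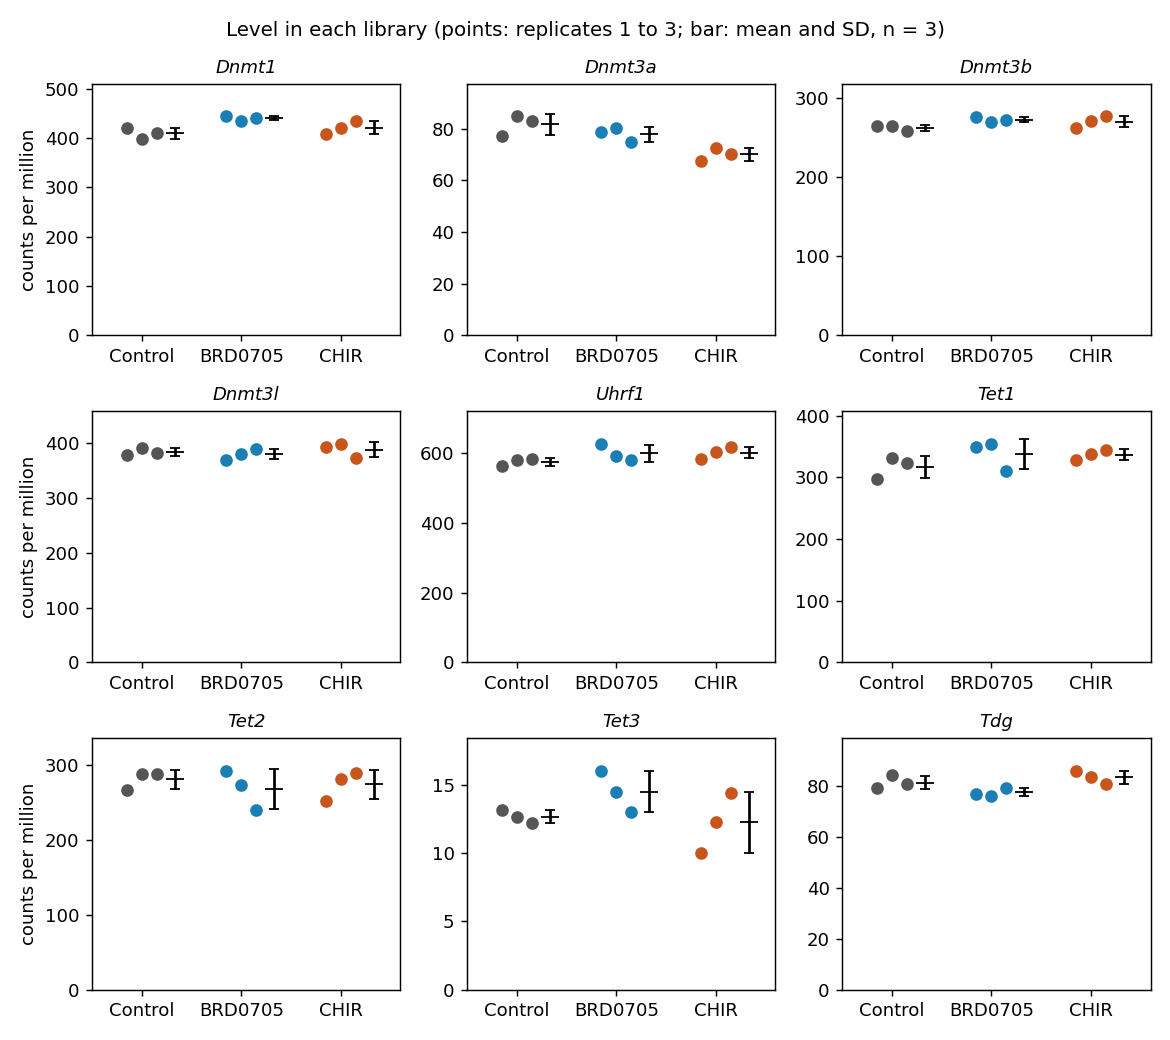
CPM of each gene (vertical axes, from 0) in the 9 libraries by group; points are replicates 1 to 3 from left to right and the bar is the mean with its SD, n = 3. Only Dnmt3a shows CHIR libraries (67.5 to 72.5 CPM) below all controls (77.2 to 84.8 CPM), and Tet3 and Tet2 show the widest spread within groups among the inhibitor libraries.

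Read over the 9 genes, the counts of calls were 0 for BRD0705 against control, 1 for CHIR against control and 0 for BRD0705 against CHIR, where 1.22%, 6.3% and 7.77% of all genes passed. At an unadjusted p under 0.05 there were 1, 1 and 2 of the 9 by edgeR, against 15.9%, 20.5% and 22.5% of all genes. DESeq2 also called 0, 1 and 0 of the 9. Groups did not overlap for 3 of the 9 in BRD0705 against control (Dnmt1, Dnmt3b and Tdg), for 2 in CHIR against control (Dnmt3a and Uhrf1) and for 3 in BRD0705 against CHIR (Dnmt1, Dnmt3a and Tdg), where all genes gave 20.2%, 25.1% and 26.7%. With 9 genes these shares are near the background. The median absolute log2 difference was 0.070, 0.041 and 0.032 over the 9 genes and 0.10, 0.11 and 0.12 over all genes tested. Apart from Tet3 (percentile 46.4), the genes lay at percentiles 81.8 to 98.6 of level among all genes tested. The medians were not matched for level, so they do not show a weaker response of these genes.

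**Figure D3:**
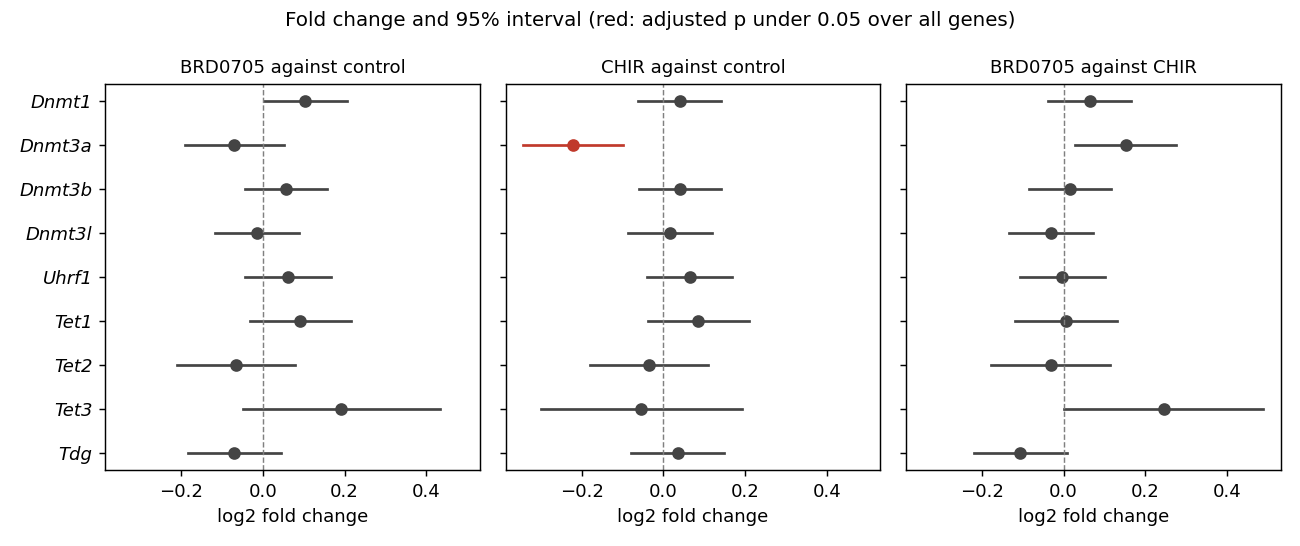
Log2 fold change (horizontal axes) of the 9 genes in the 3 comparisons with 95% intervals from edgeR; red marks an adjusted p under 0.05 over all genes. Dnmt3a with CHIR (-0.22) is the only red point, and Tet3 has the widest intervals.

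The genes differ far more among themselves than between treatments. Per kilobase of longest transcript, Dnmt3l had the highest level at 210.2 ± 5.23 CPM per kb, followed by Uhrf1 at 143 ± 4.91, Dnmt1 at 65.9 ± 2.50 and Dnmt3b at 59.1 ± 1.42 (SD, n = 9). Tet2 at 27.9 ± 1.88 and Tet1 at 23.0 ± 1.30 CPM per kb came next, with ranges over libraries that overlapped (24.3 to 29.7 and 20.7 to 24.7). Tdg stood at 11.7 ± 0.473, Dnmt3a at 7.72 ± 0.587 and Tet3 at 1.21 ± 0.157 CPM per kb (SD, n = 9). The other neighbours in this order did not overlap in any library. Taken per kilobase of all annotated exons, Tet1 (21.4 CPM per kb) was above Tet2 (15.4), and the other 7 genes kept their places. Among all tested genes with a length, Dnmt3l was at percentile 98.6 per length, Dnmt3a at 63.1 and Tet3 at 27.4. Lengths came from GENCODE vM39, an annotation of a later build than the mm10 named in the submitters' processing notes, so these levels are approximate.

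**Figure D4:**
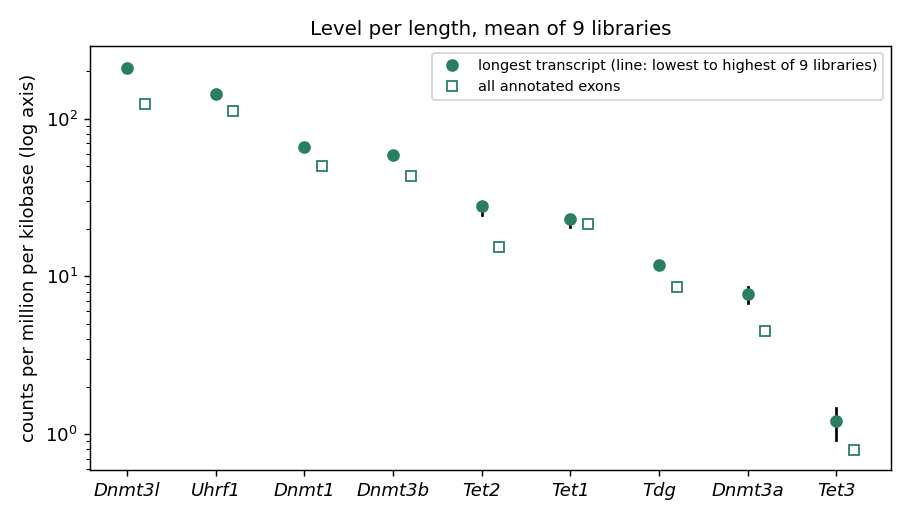
Mean level of each gene over 9 libraries in CPM per kilobase (log axis), by longest transcript (filled, line from lowest to highest library) and by all annotated exons (open). Levels span from 210.2 for Dnmt3l to 1.21 for Tet3, and Tet1 and Tet2 trade places between the length measures.

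The profile of Dnmt3a over the 9 libraries was compared with 9564 genes of at least 3 mean log2 CPM by the root mean square difference of centred log2 CPM. The nearest was Tnrc6b, a component of microRNA silencing complexes, at 0.0279, followed by Zfp638 at 0.0408 and Nhlrc2 at 0.0416, where the Dnmt3a profile itself had a root mean square of 0.104. With CHIR against control these genes stood at -0.18, -0.17 and -0.20 on the log2 scale, and none passed (edgeR adjusted p 0.0692, 0.0824 and 0.0592). They were picked for likeness to Dnmt3a over these same libraries, so similar changes follow from the choice. How near a neighbour would lie among this many genes without a shared response was not computed.

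Other genes of the pathway came from 7 lists with 73 genes, of which 72 were tested. Across them 0 genes passed in BRD0705 against control, 1 in CHIR against control and 2 in BRD0705 against CHIR, and at an unadjusted p under 0.05 the edgeR counts were 13, 8 and 13. Over all genes the shares were 1.22%, 6.3% and 7.77% past the threshold, and 15.9%, 20.5% and 22.5% at the unadjusted p. The median log2 fold changes of the 72 genes were -0.012, 0.013 and -0.024, beside -0.0038, -0.0091 and 0.0038 over all genes.

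Among the 10 methyl-CpG readers, Mbd1 and Uhrf2 were lower with BRD0705 than with CHIR. Mbd1, which binds methylated CpG and recruits repressors, had 24.1, 24.6 and 25.5 CPM with BRD0705, 30.8, 28.5 and 29.3 CPM with CHIR and 25.5, 27.8 and 27.5 CPM in control. The difference between inhibitors was -0.26 ± 0.067 (SE; edgeR adjusted p 0.0256), and neither inhibitor passed against control (edgeR adjusted p 0.401 and 0.261). Mbd1 was past the threshold in 15 of 21 alternatives; the edgeR adjusted p was 0.0917 without BRD0705 replicate 1, 0.0673 without BRD0705 replicate 2, 0.0997 without CHIR replicate 1, 0.0513 without CHIR replicate 3, 0.0638 with library size only and 0.0555 with the fibroblast score. The Mbd1 difference itself was -0.22 and -0.24 in the last 2 of these fits.

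Uhrf2, the relative of Uhrf1, had 28.6, 28.1 and 29.2 CPM with BRD0705, 35.8, 34.96 and 32.0 CPM with CHIR and 30.7, 32.0 and 34.6 CPM in control. BRD0705 lay below both other groups, and CHIR and control overlapped. The Uhrf2 difference between BRD0705 and control was -0.18 ± 0.068 (SE). Neither inhibitor passed against control (edgeR adjusted p 0.204 with BRD0705 and 0.561 with CHIR). BRD0705 against CHIR gave -0.26 ± 0.068 (SE; edgeR adjusted p 0.027). Uhrf2 was past the threshold in 16 of 21 alternatives, and not without BRD0705 replicate 1 (0.0766), BRD0705 replicate 2 (0.0801), CHIR replicate 1 (0.107) or CHIR replicate 2 (0.091), nor with library size only (0.0662), all edgeR adjusted p values. Uhrf1 itself gave -0.0028 ± 0.050 between the inhibitors (SE).

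Of the 11 genes for Tet partners and cofactor supply, Gadd45b was higher with CHIR. Gadd45b, a stress-induced gene that has been linked to demethylation, had 27.7, 26.6 and 26.5 CPM in control, 32.3, 32.6 and 30.4 CPM with CHIR and 30.2, 28.1 and 27.5 CPM with BRD0705. CHIR against control gave 0.24 ± 0.065 (SE; edgeR adjusted p 0.0374), in the direction opposite to Dnmt3a. BRD0705 against control gave 0.085 ± 0.066 for Gadd45b (SE; edgeR adjusted p 0.581) and did not pass. The direct difference, BRD0705 against CHIR, was -0.15 ± 0.065 (SE; edgeR adjusted p 0.172). It did not pass in the reported fit and passed in 2 of 21 alternatives. The Gadd45b call held in 15 of 21 alternatives and was lost without control replicate 2 (0.0928), control replicate 3 (0.109), CHIR replicate 1 (0.0881) or CHIR replicate 2 (0.123), with library size only (0.0722) and with the fibroblast score (0.441), all edgeR adjusted p values.

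No gene passed in any comparison among the 15 maintenance and targeting partners (such as Hells and Trim28), the 12 base excision repair genes, the 11 genes of methyl donor supply or, for the other Dnmt relatives, Trdmt1, the single one of 2 that was tested. By edgeR's unadjusted p under 0.05, base excision repair had 0 genes in each of the 3 comparisons, the maintenance list 3, 0 and 1, methyl donor supply 1, 2 and 1, and Trdmt1 0, beside 15.9%, 20.5% and 22.5% of all genes.

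The 12 germline genes known to be silenced by promoter methylation were all tested. Their mean levels over the 9 libraries ran from 2.02 CPM for Asz1 to 52.8 CPM for Dazl, an RNA-binding protein gene of germ cells. Of the 12, 0 passed in any comparison by edgeR, where 1.22%, 6.3% and 7.77% of all genes passed. At an unadjusted edgeR p under 0.05 there were 2, 1 and 3, against 15.9%, 20.5% and 22.5% of all genes. Under some alternatives Dazl, Sycp1 or Mael passed: Dazl in BRD0705 against CHIR with the replicate block, with no low-count filter and without BRD0705 replicate 2 (where Mael passed too), Mael in BRD0705 against control with no filter, and Sycp1 in CHIR against control with RLE factors, the CPM filter, the GC and length corrections, and without BRD0705 replicate 3 or CHIR replicate 3. The summed level of the 12 genes was 215 to 237 CPM in control, 199.5 to 233 CPM with BRD0705 and 220.2 to 243 CPM with CHIR.

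**Figure D5:**
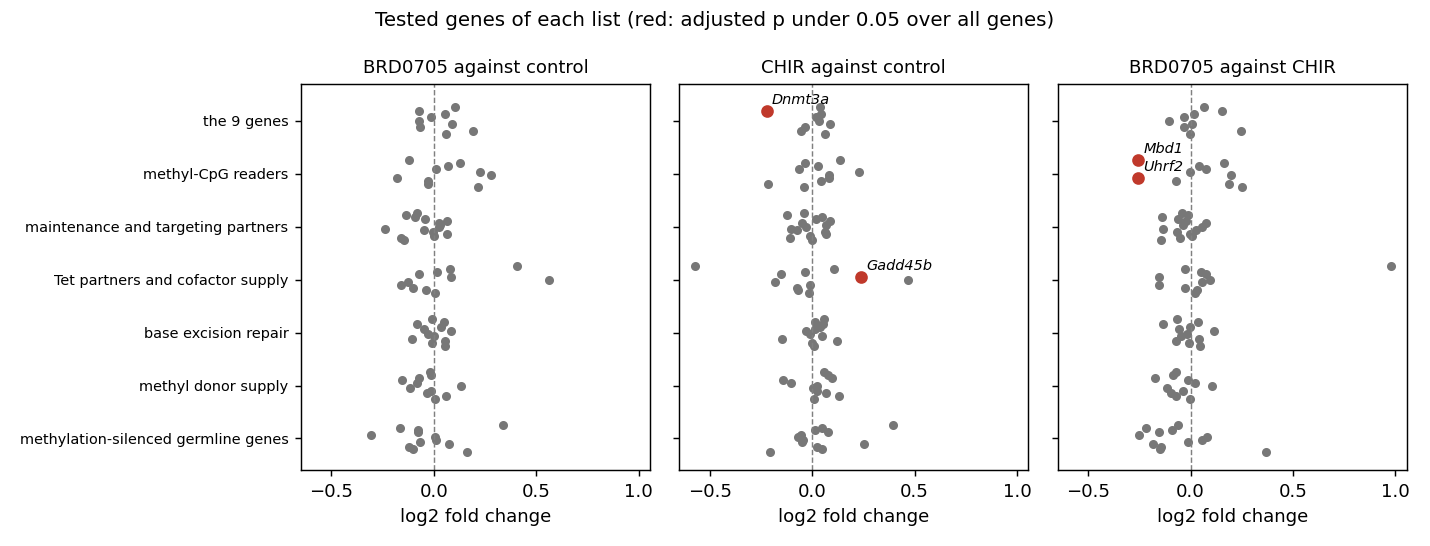
Log2 fold change (horizontal axes) of every tested gene in the 9-gene set and 6 pathway lists for the 3 comparisons; red marks an adjusted p under 0.05 over all genes by edgeR. Red points are Dnmt3a and Gadd45b in CHIR against control, on opposite sides of 0, and Mbd1 and Uhrf2 in BRD0705 against CHIR; the grey point farthest right is Cxxc4, at 0.73 ± 0.28 CPM (SD, n = 9).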

How the data were processed

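RNA was measured in 9 libraries, 3 per group, with groups and replicate numbers taken from the library descriptions. The authors deposited raw counts per gene symbol as whole numbers. They also deposited a normalized signal, which equalled those counts divided by 1 factor per library to within 4.96e-10. RSEM, DESeq2 and mm10 are named, without roles, per the submitters' processing notes; RSEM counts are estimates, so the whole numbers may be rounded. The molecule label says polyA RNA, while the protocol names ribosomal RNA depletion.

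Counts were tested with edgeR 4.0.16 (R 4.3.3): TMM scaling, the filterByExpr filter (minimum count 10) and quasi-likelihood F tests over all 9 libraries (6 residual degrees of freedom). Tests were 2-sided, with Benjamini-Hochberg adjustment over 15366 genes and a threshold of 0.05. Intervals are 95%. CPM used TMM-scaled totals, and log2 CPM a prior count of 2. The reported fit and some of the alternatives were tested on counts simulated without library trends over GC content or the fibroblast score. That run does not cover these features, and its outcome is not given here. The 9 genes and all lists were chosen with earlier results of these data known. The rule was to name all 9 genes, list genes past the threshold (up to 4 per list and comparison) and the 3 nearest profiles of a called gene; other genes named were chosen after their values were seen. Another list gene, called under some alternatives only, is not reported here.

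The fibroblast score is the mean log2 CPM of Col1a1, Col1a2, Col3a1, Col5a1, Fn1, Postn, Dcn, Lum, Thy1 and Pdgfrb. Lengths and GC content came from GENCODE vM39, with 49497 rows matched by symbol, and covered 98% of the genes tested. Alternatives were the replicate block, DESeq2 1.42.0, limma 3.58.1 voom, other scalings and filters, only the groups compared, log2 of the deposited values plus 1, the fibroblast score, GC and length correction (splines with 5 degrees of freedom) and leaving out each library.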

Additional observations from a re-analysis of the deposited data

How the results depend on the processing

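Each of the 27 tests of the 9 genes was repeated under 21 alternatives. Dnmt3a with CHIR was the only one past the threshold under any of them, and some small differences that were not called, such as Tet2 with CHIR (-0.067 to 0.032), changed sign. The number of the 9 genes passing in CHIR against control was 1, but 0 with the fibroblast score and 0 with the GC and length correction, and 0 to 1 without 1 library. Same-numbered libraries did not deviate together on average (mean correlation -0.00119 over 9 pairs), so the numbers were not taken as pairs. The mean over 18 pairs of different number, 0.000622, is nearly fixed by centring within groups and is no separate comparison. With the replicate block 0, 1 and 0 of the 9 genes passed in BRD0705 against control, CHIR against control and BRD0705 against CHIR.

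For the pathway lists, 0 genes passed in BRD0705 against control, and 1 with DESeq2, 4 with no low-count filter, 1 with a mean CPM of at least 1, 1 with the deposited normalized values and 0 to 2 without 1 library. In CHIR against control 1 passed, and 2 with voom, 2 with RLE factors, 2 with library size only, 2 with no filter, 4 with the CPM filter, 2 with the deposited values, 0 with the fibroblast score, 4 with the GC and length correction, 4 when that was joined to the replicate block, and 0 to 3 without 1 library. In BRD0705 against CHIR 2 passed, and 0 with library size only, 1 with the fibroblast score, 6 with the GC and length correction, 6 with that correction and the replicate block, 3 with the block alone, and 0 to 3 without 1 library. The causes were not tested.

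Over all genes, 188 passed in BRD0705 against control, 477 with DESeq2, 609 with no filter, 0 with the fibroblast score, 115 with the GC and length correction, 109 with the block added to it and 21 to 305 without 1 library. CHIR against control gave 968, 188 with the score, 1537 with the correction, 1503 with the block added and 514 to 1070 without 1 library; BRD0705 against CHIR gave 1194, and 616 to 1313 without 1 library. Spearman correlations across genes between a library's deviation and GC content were -0.293 to 0.191 in control, 0.0644 to 0.269 with BRD0705 and -0.117 to -0.0567 with CHIR. Tet3, at 201 to 300 counts, had the widest intervals.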

Other observations

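Gadd45g, a relative of Gadd45b on the same list, did not pass in the reported fit and was looked at after its values were seen. It passed in BRD0705 against control with no low-count filter, with the CPM filter, with the deposited values and without CHIR replicate 1, and in CHIR against control with the deposited values and with both GC and length corrections. Its mean was 3.72 ± 0.22 CPM for the controls, 5.51 ± 0.55 for BRD0705 and 5.15 ± 0.27 for CHIR (SD, 3 libraries each), and the inhibitor libraries (4.87 to 5.86 and 4.92 to 5.45 CPM) lay above the controls (3.55 to 3.97 CPM). The log2 fold changes were 0.56 ± 0.14 and 0.47 ± 0.14 (SE; adjusted p 0.0566 and 0.0591 by edgeR). Both comparisons use the same controls.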
